A study of Mus musculus with 15 samples.

Results

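The 10 genes described here encode the core of insulin and insulin-like growth factor (IGF) signalling: the ligands *Igf1* and *Igf2*, the binding proteins *Igfbp2* and *Igfbp5*, the receptors *Igf1r*, *Insr* and *Igf2r*, the docking proteins *Irs1* and *Irs2*, and *Pik3r1*, the main regulatory subunit of phosphatidylinositol 3-kinase (PI3K). They were chosen by name from the 23235 genes of a cortex RNA-seq table, and all 10 were found in it. IGF1 and IGF2 act through IGF1R, and insulin through INSR. These are tyrosine kinases that phosphorylate IRS1 and IRS2, which recruit PI3K and so switch on AKT and mTOR while holding back the FOXO transcription factors. IGF2R takes up IGF2 for degradation and does not signal in this way, and IGF binding proteins hold the ligands in the extracellular space. *Igf2* and *Igf2r* are imprinted genes. In the adult brain, leptomeninges and choroid plexus are known as sources of IGF2.

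The study concerned *116HG*, a long non-coding RNA of the Prader-Willi syndrome locus that is spliced from the host transcript of the *Snord116* small nucleolar RNAs. Adult *Snord116del* (+/-) mice of the strain B6(Cg)-Snord116tm1.1Uta/J, which are heterozygous for a paternally inherited deletion of the *Snord116* cluster in this imprinted region, were compared with adult wild-type (WT) C57BL/6J mice that carry no such deletion. Cortex RNA was sequenced at Zeitgeber (Zt) +6, in the light phase, from 3 WT and 2 *Snord116del* mice. At Zt +16, in the dark phase, it was sequenced from 2 WT and 2 *Snord116del* mice. The paper describes the mice used for RNA-seq as males, with WT littermates as controls. In addition, 5 lists of chromatin peaks came from chromatin isolation by RNA purification (ChIRP-seq) of adult brain. In ChIRP-seq, biotinylated oligos complementary to an RNA pull down that RNA with the DNA fragments bound to it. Of these lists, 2 were *116HG* ChIRP replicates on WT brain. The other 3 were controls of 1 library each: the *116HG* oligos used on *Snord116del* brain, and oligos of the non-specific control (NSC) set used on WT brain and on *Snord116del* brain. The deletion removes small nucleolar RNAs together with *116HG*, so the 2 losses cannot be told apart in these mice.

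RNA levels are FPKM, mapped fragments per transcript length and library size, with 1 value per group and gene. Values of single mice are not part of the table, so no spread between mice or standard deviation is given and no p-value was computed. Each comparison below sets 1 group value against 1 other. A gene was counted as higher or lower when FPKM + 1 differed at least 1.5-fold (0.58 on the log2 scale) with at least 1 FPKM in the higher group. This was asked of the 10297 genes whose level averaged 1 FPKM or more over the 4 groups. Of the 10 genes, 8 passed that filter. *Igf1* (mean 0.44 FPKM) and *Irs1* (mean 0.861 FPKM) did not, while *Insr* and *Igf2r* reached 1 FPKM only in *Snord116del* at Zt +6 and passed through that group. In bulk tissue, fewer cells of a type and less RNA per cell cannot be told apart.

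The groups differed beyond these genes. The FPKM of all genes summed to between 159300 and 342188, and the median of the genes passing the filter ran from 2.90 FPKM in WT at Zt +16 to 5.63 FPKM in *Snord116del* at Zt +6. *Snord116* itself was listed at 0 in every group, so it gives no check of the genotype. *Ipw*, a neighbouring non-coding transcript, stood at 21.6 and 3.40 FPKM in WT and *Snord116del* at Zt +6 and at 3.17 and 1.82 FPKM at Zt +16. Markers of cortical excitatory neurons were present in all groups (6 genes, summed level 1007 to 1882 FPKM). A list of 7 striatal markers summed to 172, 174, 290 and 477 FPKM in WT and *Snord116del* at Zt +6 and WT and *Snord116del* at Zt +16. No marker of the 11 cell type lists examined was at 0 in any group.

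**Figure D1:**
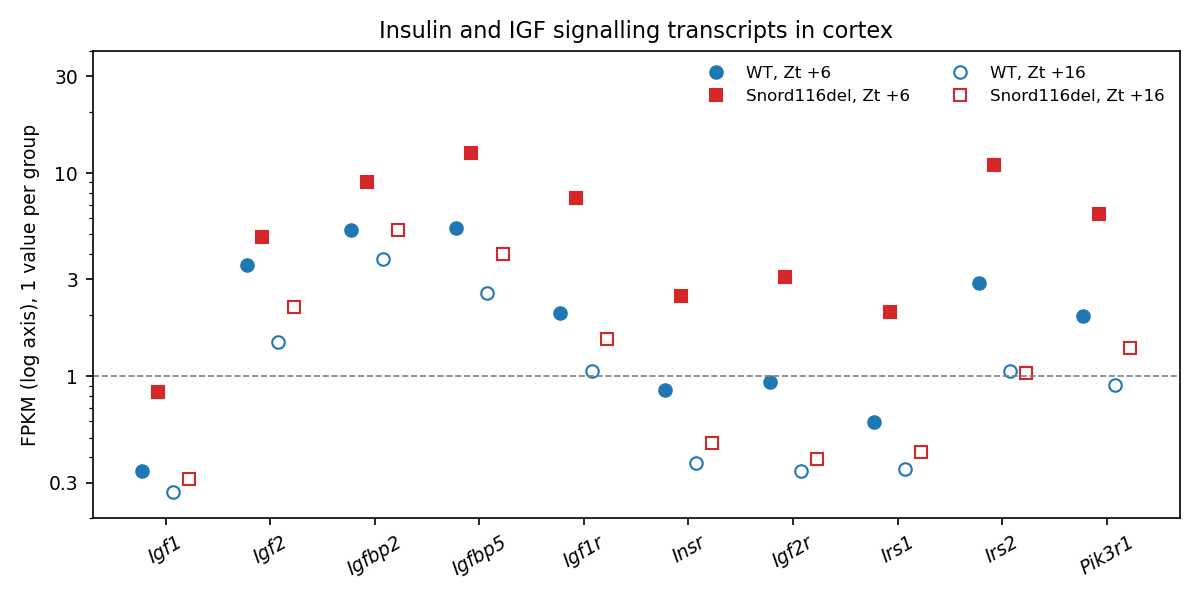
Cortex levels of the 10 genes on a log axis in FPKM, with 1 point per group: WT (circles) and *Snord116del* (squares), filled at Zt +6 and open at Zt +16. For each gene the filled square, *Snord116del* at Zt +6, is the highest of the 4 points, and the dashed line marks 1 FPKM.

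The ligands differed in level. *Igf1* stood at 0.341 FPKM in WT and 0.834 FPKM in *Snord116del* at Zt +6, and at 0.271 and 0.313 FPKM at Zt +16, the lowest level among the 10 genes in every group. *Igf2* stood at 3.52 and 4.88 FPKM at Zt +6 and at 1.47 and 2.20 FPKM at Zt +16, so both Zt +6 groups lay above both Zt +16 groups. FPKM is a level per transcript length, so genes can be set side by side, although with no spread between mice it cannot be said which neighbours in an order differ.

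The binding proteins were among the most abundant of the 10. *Igfbp2* stood at 5.26 FPKM in WT and 9.06 FPKM in *Snord116del* at Zt +6, and at 3.80 and 5.28 FPKM at Zt +16. *Igfbp5* stood at 5.40 and 12.5 FPKM at Zt +6 and at 2.56 and 3.98 FPKM at Zt +16. *Igfbp5* (longest transcript 6006 bases) led the order at Zt +6 in both genotypes and *Igfbp2* (1307 bases) at Zt +16 in both.

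Among the receptors, *Igf1r* was the most abundant, at 2.06 FPKM in WT and 7.53 FPKM in *Snord116del* at Zt +6 and at 1.07 and 1.53 FPKM at Zt +16. *Insr* stood at 0.862 and 2.48 FPKM at Zt +6 and at 0.374 and 0.471 FPKM at Zt +16. *Igf2r* stood at 0.938 and 3.10 FPKM at Zt +6 and at 0.343 and 0.390 FPKM at Zt +16. In WT at Zt +16, *Insr* and *Igf2r* lay near *Irs1* (0.351 FPKM), below the middle of the table: 49.97% and 48.7% of its genes had a lower level.

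The docking proteins were unlike each other. *Irs1* stood at 0.599 FPKM in WT and 2.07 FPKM in *Snord116del* at Zt +6 and at 0.351 and 0.427 FPKM at Zt +16. *Irs2* stood at 2.87 and 10.9 FPKM at Zt +6 and at 1.07 and 1.04 FPKM at Zt +16, the widest range of the 10 genes, with the highest group 10.5 times the lowest. *Pik3r1*, downstream of both, stood at 1.97 and 6.28 FPKM at Zt +6 and at 0.909 and 1.37 FPKM at Zt +16. In *Snord116del* at Zt +6, *Irs2* was at a higher level than 87.5% of all genes, and in *Snord116del* at Zt +16 than 59.9%.

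The first question was whether these transcripts differed with the deletion in the light phase. At Zt +6, 7 of the 8 genes that passed the filter were counted as higher in *Snord116del* than in WT and 0 as lower. The exception was *Igf2*, at 1.30-fold on FPKM + 1. Of the 7, *Insr* and *Igf2r* passed the filter only through *Snord116del* at Zt +6, so their count as higher was partly set by the filter. Across all 10297 genes, 49.3% were counted as higher, 7.62% as lower and 56.9% in either direction, so it was common for a gene to be counted in this comparison. The log2 fold change of FPKM + 1 was 1.63 for *Irs2*, 1.48 for *Igf1r* and 1.29 for *Pik3r1*, against a median of 0.57 over all genes passing the filter. It was 1.08 for both *Igfbp5* and *Igf2r*, 0.90 for *Insr* and 0.69 for *Igfbp2*, the last the nearest to the threshold. *Irs1* (0.94) and *Igf1* (0.45), below the filter, were also higher in *Snord116del*. Only 3.86% of the genes passing the filter had a larger value than *Irs2*, and 6.79% had a larger value than *Igf1r*. *Igfbp2*, by contrast, lay near the middle, with 43.6% above it.

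**Figure D2:**
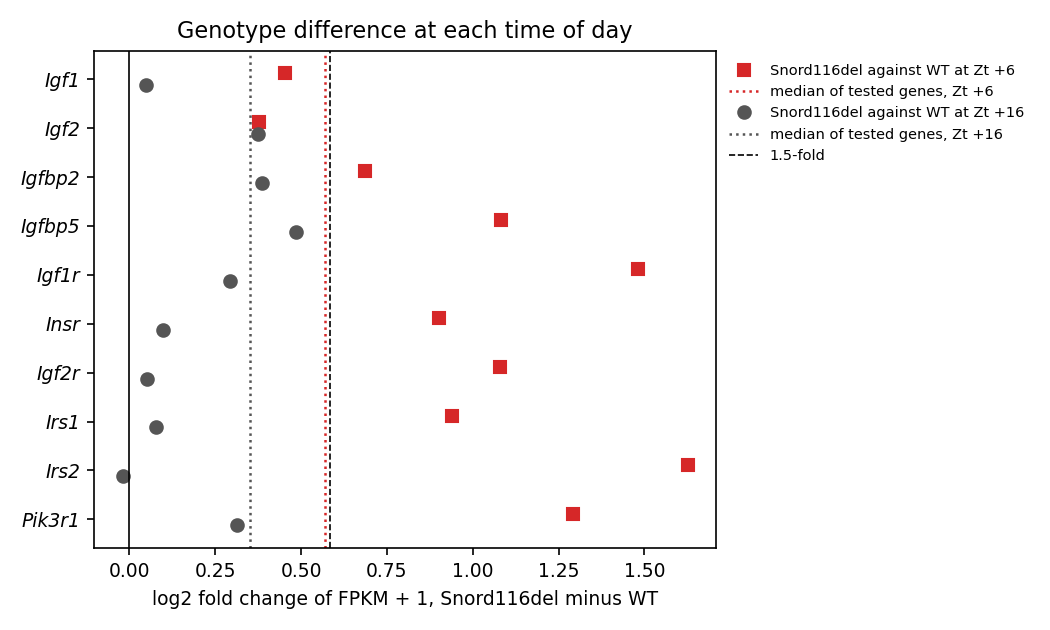
Log2 fold change of FPKM + 1 in *Snord116del* against WT for each gene at Zt +6 (squares) and Zt +16 (circles), with dotted lines at the median of the 10297 genes at each time (0.57 and 0.35) and a dashed line at 1.5-fold. *Irs2*, *Igf1r* and *Pik3r1* lie farthest right at Zt +6, and every circle lies left of the dashed line.

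The difference at Zt +6 went with transcript length over the whole table. Among genes whose longest annotated transcript had at least 4520 bases, 85% were counted as higher in *Snord116del* (median log2 fold change 1.10). Among those of at most 1912 bases the share was 14.9% (median -0.10). Across the 10165 genes with a length, Spearman's rho between length and log2 fold change was 0.63, a description over genes that share the same 2 group values. The 10 genes are mostly long. *Insr* (9355 bases), *Irs1* (9144) and *Igf2r* (8887) had the longest transcripts, followed by *Igf1* (7121), *Pik3r1* (6915) and *Igfbp5* (6006). *Igf2* had 4722 bases, *Igf1r* 4181, *Irs2* 4024 and *Igfbp2* 1307.

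Set against the trend at their own length, the genes separated. *Irs2* lay 0.86 above it on the log2 scale, *Igfbp2* 0.78 and *Igf1r* 0.68. These 3 were the genes counted as higher once the trend had been removed, where 12.6% of all genes were. *Pik3r1* (0.16) and *Igfbp5* (0.03) lay close to the trend. *Igf2r* (-0.17), *Irs1* (-0.33) and *Insr* (-0.37), the genes with the longest transcripts, lay below it, as did *Igf2* (-0.52) and *Igf1* (-0.70). With the 4 groups brought to a common median, a step that shifted the median of all genes by -0.67, 3 genes were likewise counted as higher, against 14.4% of all genes. These were *Irs2* (0.91), *Igf1r* (0.80) and *Pik3r1* (0.63), while *Igfbp2* came to -0.04. *Irs2* and *Igf1r* were thus counted as higher under each scale tried. Their place above the trend rests on the annotated lengths, and replicate 1 ChIRP peaks lay past the annotated ends of both genes. At greater length the trend was higher, 1.25 at *Igf2r* (8887 bases) against 0.80 at *Igf1r* (4181 bases). A longer true transcript would therefore lower both values, and this was not tested. The part of RNA quality or library preparation in the length trend was not tested.

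**Figure D3:**
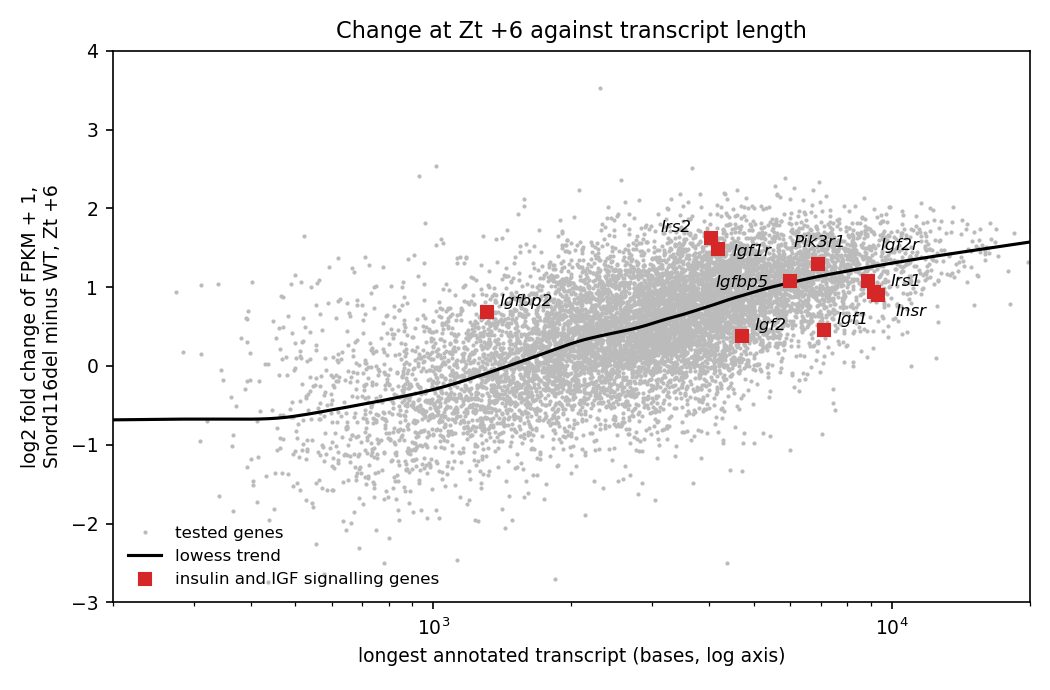
Log2 fold change of FPKM + 1 in *Snord116del* against WT at Zt +6 against the longest annotated transcript in bases (log axis), for genes passing the filter (grey) and the 10 genes (red squares), with a lowess trend in black. *Irs2*, *Igf1r* and *Igfbp2* lie above the trend and *Igf2*, *Igf1* and *Insr* below it. Of 10165 genes, 39 lie outside the axes.

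Markers of other brain cell types differed between the groups as well, in a comparison at Zt +6 where 49.3% of all genes were counted as higher. Their part in these results was not tested. At Zt +6 the summed level of 7 astrocyte markers was 111 FPKM in WT and 315 FPKM in *Snord116del*, with 7 of 7 counted as higher. For 6 endothelial markers the sums were 6.09 and 21.0 FPKM, with 5 of the 5 that passed the filter counted as higher. For 8 microglial markers the sums were 84.5 and 113 FPKM, with 4 of 8 counted as higher. Among markers passing the filter, 3 of 6 oligodendrocyte, 3 of 6 pan-neuronal, 5 of 6 striatal and 2 of 2 pericyte and smooth muscle markers were counted as higher. For excitatory neurons it was 3 of 6, with 1 lower, and for interneurons 2 of 6, with 2 lower. For leptomeningeal fibroblasts it was 0 of 6 and for choroid plexus 0 of 1. At Zt +16 the sums were 65.9 and 99.9 FPKM for astrocytes, 3.38 and 4.05 FPKM for endothelium and 101 and 182 FPKM for microglia.

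In the dark phase the genotypes were closer. At Zt +16, 0 of the 8 genes were counted, in a comparison where 19% of all genes were counted as higher, 0.204% as lower and 19.2% in either direction. Only 6 of the 8 could have been counted, since *Insr* and *Igf2r* were under 1 FPKM in both genotypes. Among genes with transcripts of at least 4520 bases the share counted as higher was 4.47%, and with the groups brought to a common median it was 1.18% of all genes. With no values of single mice, no test tool was run on this count. *Igfbp5* came nearest, at a log2 fold change of 0.48, followed by *Igfbp2* (0.39), *Igf2* (0.37), *Pik3r1* (0.31) and *Igf1r* (0.29). *Insr* (0.10), *Irs1* (0.08), *Igf2r* (0.05) and *Igf1* (0.05) differed little, at levels below 0.5 FPKM, where adding 1 to FPKM damps a fold change. *Irs2* stood at -0.02, the only value of the 10 below 0 on the deposited scale. That order depends on the scale: the number below 0 was 5 with a common median, 7 with the length trend removed and all 10 with the groups scaled to the same FPKM total, from -0.29 (*Irs2*) to -0.02 (*Igfbp5*). The median over all genes was 0.35, and 3 of the 10 genes lay above it, whereas at Zt +6 8 of the 10 lay above the median of that time. At this time the length trend ran the other way (Spearman's rho -0.38).

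Time of day was compared within each genotype. In WT, all 10 genes had a lower level at Zt +16 than at Zt +6, and 4 of the 8 that passed the filter were counted as lower: *Irs2* (-0.90), *Igf2* (-0.87), *Igfbp5* (-0.84) and *Pik3r1* (-0.64). *Insr* and *Igf2r* were under 1 FPKM in both WT groups and could not be counted. Scaled to the same FPKM total, 8 genes were counted as lower, against 26.4% of all genes, and at a fold of at least 2 on the deposited scale 0 were. Over all genes 10.3% were counted as lower, 5.71% as higher and 16% in either direction, and 22.2% of genes with transcripts of at least 4520 bases were counted as lower. *Igf1r*, at 2.06 and 1.07 FPKM, fell just short at -0.56. The median of all genes was -0.04, and each of the 10 genes lay below it. With the length trend removed, *Irs2* (-0.79) and *Igf2* (-0.69) were still counted as lower and *Igfbp2* (-0.61) was added, against 6.65% of all genes. *Igfbp5* (-0.56) and *Pik3r1* (-0.29) were no longer counted.

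In *Snord116del*, all 8 genes that passed the filter were counted as lower at Zt +16 than at Zt +6, against 39.1% of all genes. In that comparison 25% of all genes were counted as higher and 64% in either direction. *Insr* and *Igf2r* passed the filter only through *Snord116del* at Zt +6, the higher group here, so their count as lower was partly set by the filter. *Irs2* had a log2 fold change of -2.55, and only 1.55% of the genes lay below it. *Igf1r* followed at -1.75, *Pik3r1* at -1.62, *Igf2r* at -1.56, *Igfbp5* at -1.44 and *Insr* at -1.24. Smaller values were those of *Igf2* (-0.88) and *Igfbp2* (-0.68). Among genes with transcripts of at least 4520 bases, 75.2% were counted as lower. With the length trend removed, 3 genes remained counted as lower, *Irs2* (-1.99), *Igfbp2* (-1.50) and *Igf1r* (-1.14), against 24.9% of all genes. *Insr* then stood at 0.32. The Zt +6 value of *Snord116del* enters both this comparison and that of the genotypes at Zt +6, so the 2 results are not separate observations.

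On the deposited scale, *Igf2* had nearly the same genotype difference at both times (0.38 and 0.37) and nearly the same time difference in both genotypes (-0.87 and -0.88). The match did not hold on other scales: the genotype differences at Zt +6 and Zt +16 were -0.28 and 0.08 with a common median, 0.38 and -0.04 with the same FPKM total, and -0.52 and 0.08 with the length trend removed. The time differences in WT and *Snord116del* were then -0.82 and -0.47, -1.18 and -1.61, and -0.69 and -0.09, below 0 in each case. Markers of the choroid plexus, the secretory epithelium of the ventricles, moved the same way with time. Their summed level over 8 genes was 205 FPKM in WT and 187 FPKM in *Snord116del* at Zt +6, and 26.8 and 31.8 FPKM at Zt +16. Most of that sum was *Ttr*, which encodes the thyroid hormone carrier transthyretin, at 200 and 182 FPKM against 24.9 and 29.6 FPKM. Of the other 7 markers, 5 were below 1 FPKM in every group. *Kl* (0.770, 0.838, 0.169 and 0.177 FPKM) and *Sostdc1* (1.03, 1.02, 0.240 and 0.319 FPKM, both in the order WT and *Snord116del* at Zt +6, then WT and *Snord116del* at Zt +16) had the same order in time. By contrast, 10 markers of leptomeningeal fibroblasts summed to 12.6 and 17.1 FPKM at Zt +6 and to 11.8 and 19.1 FPKM at Zt +16. The part of choroid plexus tissue in the level of *Igf2* was not tested.

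**Figure D4:**
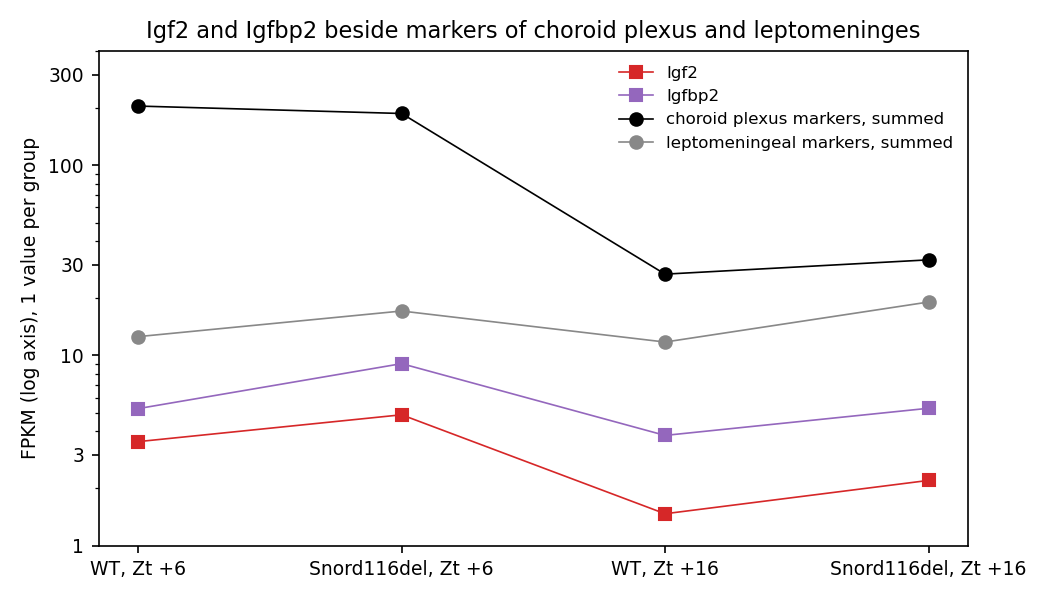
Levels of *Igf2* and *Igfbp2* beside the summed levels of 8 choroid plexus markers and 10 leptomeningeal markers, in FPKM on a log axis, with 1 point per group. The choroid plexus sum is 205 and 187 FPKM at Zt +6 and 26.8 and 31.8 FPKM at Zt +16, and *Igf2* is also higher in both Zt +6 groups, while the leptomeningeal sum stays between 11.8 and 19.1 FPKM.

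The profile of a gene over the 4 groups was compared with that of every gene passing the filter, as the Euclidean distance between centred log2(FPKM + 1) values. Over only 4 groups such distances are easily small. Among the 10 genes the closest pairs were *Igf1r* and *Pik3r1* (0.14) and *Insr* and *Irs1* (0.17), and the most distant pair was *Igf1* and *Irs2* (1.67). The nearest genes of the whole table were *Prickle2*, *Clk4* and *Dnm2* for *Igf1r* and *Nos1* and *Gm14326* for *Igf2r*, all within 0.03. The distance depends on the size of the changes as well as on their pattern, and *Irs2* had the widest log2 span of the 10 genes (2.55). It had 67 genes within 0.2, and its nearest were *Ppp1r37* (0.07), *Zbed6* (0.08) and *Elfn2* (0.08). *Igf2* had the fewest, with 4 genes within that distance, the nearest being *Gm129* (0.11), *Farsa* (0.17) and *Maf1* (0.18). *Igfbp5* had 84 genes within 0.2 and the other genes compared had 418 to 588.

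Beyond the 10 genes, a list of 58 further genes of the pathway was examined, of which 33 passed the filter. At Zt +6, 19 of the 33 (57.6%) were counted as higher in *Snord116del* and 0 as lower, beside 49.3% and 7.62% of all genes. With the groups brought to a common median, 8 were counted as higher and 7 as lower (14.4% and 24% of all genes). With the length trend removed, 3 of the 19, *Cbl*, *Foxo3* and *Ide*, were still counted as higher, and 2 that had not been counted, *Ptpn1* (-0.61) and *Ptprf* (-0.90), were counted as lower (12.6% and 13.4% of all genes). The largest differences were those of *Foxo3*, a transcription factor that AKT keeps out of the nucleus (2.29 and 10.2 FPKM, log2 fold change 1.77), and *Cbl*, a ubiquitin ligase for activated receptors (1.43 and 6.61 FPKM, 1.65). Next came *Ide*, the insulin-degrading enzyme (1.39 and 6.19 FPKM, 1.59), and *Phlpp1*, a phosphatase of AKT (3.60 and 12.7 FPKM, 1.58). By role, 5 of 6 kinases, 6 of 8 adaptors, 3 of 4 further PI3K subunits, 3 of 6 inhibitors, 1 of 2 lipid phosphatases and 1 of 3 transcription factors were counted as higher. Of the binding proteins other than *Igfbp2* and *Igfbp5*, 0 of 3 were counted: *Igfbp4* stood at -0.09, *Igfbp7* at -0.13 and *Igfbp6* at -0.58. At Zt +16, 3 of the 33 (9.09%) were counted as higher and 0 as lower, beside 19% and 0.204% of all genes: *Akt1* (18.3 and 29.9 FPKM, 0.68), *Gsk3a* (24.6 and 39.3 FPKM, 0.65) and *Eif4ebp1* (0.62), which was named after its value was seen. None of the 33 was counted at Zt +16 with a common median, with the same FPKM total or with the length trend removed.

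The promoters were then read for the E-box CACGTG, which the clock factors CLOCK and BMAL1 are known to bind, and for the FOXO motif GTAAACA, since the groups differ in time of day and FOXO factors act at the end of this pathway. Sequences were those of RefSeq on GRCm38.p6, from 250 bases before to 50 after each start site, and 9 of the 10 genes were in the table, with 14 promoters. Both strands were searched, and CACGTG reads the same on both. At least 1 E-box was found in 4 of the 9 genes, *Igfbp2*, *Irs1*, *Irs2* and *Igf2r*, against 8.09% of all 27025 genes. The FOXO motif was found in 0 of the 9, against 4.05% of all genes. The member promoters had a median GC content of 64% against 52.7% over all promoters, and the E-box itself has CG at its centre. A match is a description of letters and not a site of binding. The 150 bases before each start site are shown on the gene's own strand, with the E-box in capitals, because the distance and the neighbouring bases differ between the 4 genes.

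*Igfbp2* (chr1:72824330-72824479, plus strand): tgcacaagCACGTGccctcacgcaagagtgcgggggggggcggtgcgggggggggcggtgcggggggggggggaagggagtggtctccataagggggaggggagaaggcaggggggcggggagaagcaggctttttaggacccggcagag

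*Irs1* (chr1:82291440-82291589, minus strand): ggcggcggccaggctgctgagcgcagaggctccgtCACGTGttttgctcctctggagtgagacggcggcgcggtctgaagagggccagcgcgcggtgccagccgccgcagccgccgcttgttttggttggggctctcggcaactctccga

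*Irs2* (chr8:11008930-11009079, minus strand): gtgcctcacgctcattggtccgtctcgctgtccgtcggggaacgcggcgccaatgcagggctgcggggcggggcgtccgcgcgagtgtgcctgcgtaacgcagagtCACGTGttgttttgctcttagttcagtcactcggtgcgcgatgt

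*Igf2r* (chr17:12769707-12769856, minus strand): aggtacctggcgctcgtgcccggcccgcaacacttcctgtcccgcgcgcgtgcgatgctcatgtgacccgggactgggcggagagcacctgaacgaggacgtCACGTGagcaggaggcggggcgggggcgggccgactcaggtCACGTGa

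The first base of the E-box lay 142 bases before the start site in *Igfbp2*, 115 in *Irs1* and 44 in *Irs2*, and 48 and 7 bases before it in *Igf2r*. Of the 4 genes, *Irs2* was counted as lower in WT at Zt +16 and *Igfbp2* (-0.38) was not. *Irs1* (-0.24) was below the filter and *Igf2r* (-0.53) was under 1 FPKM in both WT groups, so neither could be counted. *Igf2*, *Igfbp5* and *Pik3r1*, also counted as lower, had no CACGTG in these windows.

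The next question was whether *116HG* ChIRP peaks lay at these genes. A peak was given to a gene when it lay inside it or within 2 kb, by GENCODE annotation of mm9 (NCBIM37). In the first WT *116HG* replicate, all 10 genes had at least 1 peak, against 59.3% of all 21853 genes with coordinates. Among genes within the length range of the 10 and at least as abundant as the lowest of them, the share was 90.3%. That set has no upper limit on abundance. In the second replicate 3 genes had a peak, *Igf1r*, *Insr* and *Igf2r*, against 13.8% of all genes. Of the controls, the NSC list of *Snord116del* had peaks at *Igf2* and *Irs2* (7.86% of all genes), and 0 genes had a peak in the NSC list of WT (2.3%) or in the *116HG* list of *Snord116del* (2.26%). A list of peaks shows only what passed the peak caller, so a gene without a peak is not shown to be unbound.

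Replicate 1 placed 81 peaks at the 10 genes. *Pik3r1* had 21, *Insr* 14 and *Irs2* 13, while *Igfbp5* and *Igf2r* had 7 each, *Igf1r* 6, *Igf2* and *Irs1* 5 each, *Igfbp2* 2 and *Igf1* 1. Of the 81, 66 (81.5%) lay in exons: 34 in coding exons, 26 in 3' untranslated exons, 5 in 5' untranslated exons and 1 in an untranslated exon of another transcript. A further 7 lay in introns and 8 past the annotated end. Exons make up between 1.63% (*Igf1r*) and 35.4% (*Igfbp5*) of these genes. Within 10 kb past their annotated ends lay 8 peaks at *Igf1r* and 6 at *Irs2*, so the transcript lengths of both genes used above are those of the annotation only. Across the 21853 genes the number of replicate 1 peaks followed the mean FPKM (Spearman's rho 0.74), and 93.6% of genes averaging 1 FPKM or more had a peak against 29.5% of the rest. *Pik3r1* had more replicate 1 peaks than 95.5% of those more abundant genes, *Insr* than 88.8% and *Irs2* than 86.9%.

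The fold over input of the 81 peaks ran from 30.76 to 318.07 with a median of 51.3, against a median of 55.26 for the whole list. The highest was a peak in the 3' untranslated exon of *Igfbp5* (chr1:72907533-72908917, 318.07), 1 of 5 there. *Igfbp2* lies 5.457 kb away with its own end facing that of *Igfbp5*, and its highest peak (112.87) was in its 3' untranslated exon as well. At *Pik3r1* the highest (174.43) was in a coding exon (chr13:102462139-102462312), and at *Igf2* all 5 peaks were 3' untranslated (61.56 to 153.91).

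**Figure D5:**
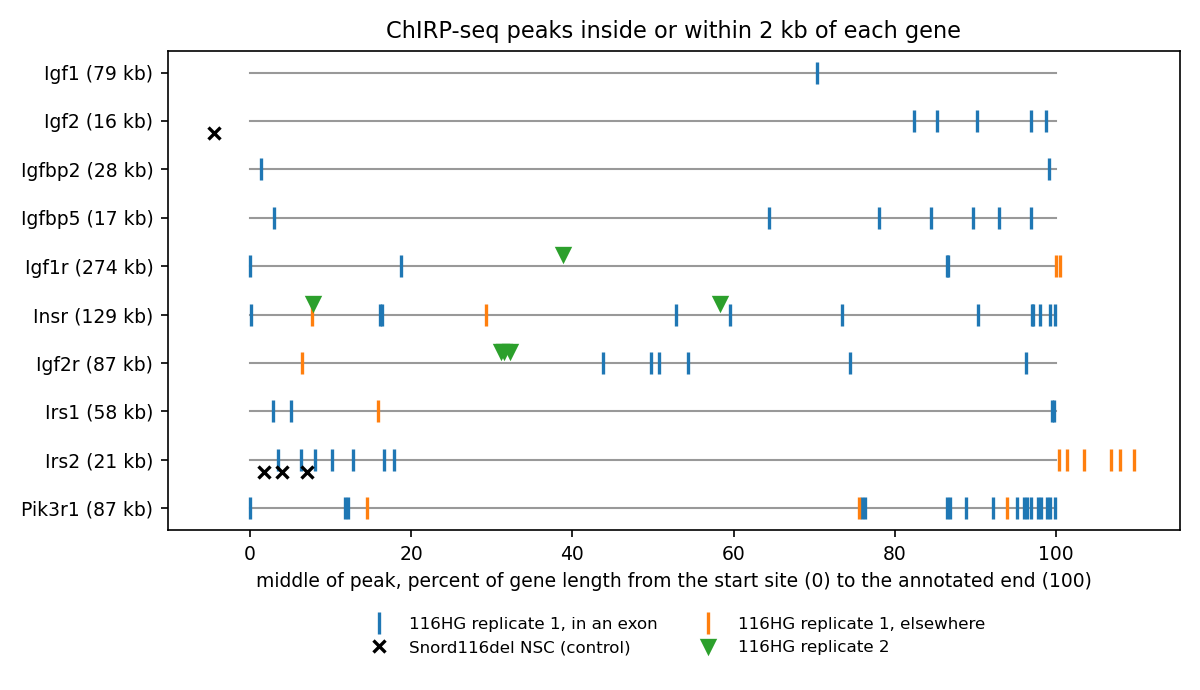
Positions of the ChIRP-seq peaks inside or within 2 kb of each gene, from the start site (0) to the annotated end (100) as a percent of gene length, with the length in kb beside each name. Replicate 1 peaks (bars) are mostly in exons, all 6 replicate 2 peaks (triangles) are intronic, and the control peaks (crosses) are at *Igf2* and *Irs2*.

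The replicates met at few places. A replicate 1 peak within 10 kb of a replicate 2 peak was found at 2 genes, *Insr* with 4 such peaks and *Igf2r* with 1. The share was 10.9% of all genes. Among genes within the length range of the 10 and at least as abundant as the lowest of them, it was 19%. The *Igf2r* pair lay 9.894 kb apart, just inside that distance, and at *Irs1* the gap was 10.048 kb, just outside it. The 2 replicates overlapped directly only at *Insr*, against 3.32% of all genes. None of the 6 replicate 2 peaks at these genes lay in an exon.

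The overlapping pair is shown first, since it is the only place at these 10 genes where both *116HG* libraries gave a peak. It lies in an intron of *Insr* about 10 kb after the start site, and the capitals mark the 69 bases of the replicate 2 peak (chr8:3269591-3269659) within the replicate 1 peak. All peaks are given on mm9 and on the gene's own strand.

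*Insr*, replicates 1 and 2 (chr8:3269585-3269681, minus strand): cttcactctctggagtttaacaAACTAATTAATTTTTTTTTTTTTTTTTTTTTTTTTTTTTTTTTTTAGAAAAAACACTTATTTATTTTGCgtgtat

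This stretch holds a run of 35 T, and its GC content was 17.5%. The middle 32 bases of the replicate 1 peak occurred 9439 times in the mm9 genome and those of the replicate 2 peak 44 times. The replicate 1 peak had a fold over input of 143.65, higher than 89.2% of its list. Runs of at least 20 of the same base were present in 32.7% of all replicate 2 peaks, 9.71% of all replicate 1 peaks, 4.56% of WT NSC peaks and 0.236% and 0.56% of the *116HG* and NSC peaks of *Snord116del*. Among the 81 replicate 1 peaks at the 10 genes, 4 held such a run. How reads were placed among repeated copies is not given in the sources used here, and its part in this overlap was not tested.

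The replicate 2 peak at *Igf1r* is shown because it too is intronic and holds another T run, in capitals.

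*Igf1r*, replicate 2 (chr7:75203936-75204017, plus strand): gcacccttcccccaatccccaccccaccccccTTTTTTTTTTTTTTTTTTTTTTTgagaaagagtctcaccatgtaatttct

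The *Igf1r* peak holds 23 T in a row and lay 54.742 kb from the nearest replicate 1 peak.

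*Igf2r* held the other group of replicate 2 peaks, 3 of them within 1111 bases of each other. All were intronic to *Igf2r* and lay 75 to 1185 bases after the annotated start of *Airn* (chr17:12934177-13052988), the antisense non-coding RNA that is known to silence *Igf2r* on the paternal allele and that overlaps *Igf2r* over 28.354 kb. They are shown with every CG in capitals, since CpG content sets them apart from the T runs above, on the strand of *Igf2r*.

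*Igf2r*, replicate 2, first (chr17:12934252-12934459, minus strand): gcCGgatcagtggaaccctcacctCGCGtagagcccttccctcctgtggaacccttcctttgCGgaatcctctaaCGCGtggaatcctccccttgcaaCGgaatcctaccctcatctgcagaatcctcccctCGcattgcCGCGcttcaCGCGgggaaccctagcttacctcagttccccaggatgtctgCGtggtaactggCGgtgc

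*Igf2r*, replicate 2, second (chr17:12934936-12935068, minus strand): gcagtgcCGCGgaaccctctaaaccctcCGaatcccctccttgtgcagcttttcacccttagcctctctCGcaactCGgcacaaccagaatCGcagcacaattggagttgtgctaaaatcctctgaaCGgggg

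*Igf2r*, replicate 2, last (chr17:12935232-12935362, minus strand): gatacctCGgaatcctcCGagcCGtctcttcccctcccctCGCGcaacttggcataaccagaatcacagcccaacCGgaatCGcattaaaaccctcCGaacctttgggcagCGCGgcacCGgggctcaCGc

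These 3 peaks held 14, 7 and 12 CpG, with a GC content of 60.1%, 55.6% and 61.1%, and the ratio of observed to expected CpG was 0.79, 0.72 and 1.08. Only 1.09% of all replicate 2 peaks had a GC content of at least 55% with a ratio of at least 0.6, and the median GC content of that list was 35.2%. Among the control lists the share of such peaks was 1.01% in WT NSC, 32.5% in the *116HG* and 34.7% in the NSC list of *Snord116del*. None of the control lists had a peak at *Igf2r*. The middle 32 bases of each of the 3 peaks occurred 1 time in the genome. *Airn* itself was at 0.681 and 0.761 FPKM in WT and *Snord116del* at Zt +6 and at 0.389 and 0.319 FPKM at Zt +16, and whether the counting used strand is not stated, so reads of *Igf2r* and *Airn* could not be told apart where they overlap. The replicate 1 peak of the *Igf2r* pair (chr17:12924270-12924358, fold over input 61.56) was in a coding exon of *Igf2r*.

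Control peaks are shown for *Irs2*, the gene with the largest difference at Zt +6. The NSC list of *Snord116del* had 3 peaks in a coding exon of *Irs2*, with a fold over input of 21.02, 22.77 and 22.77. Of the replicate 1 peaks, 3 overlapped a control peak, at chr8:11006754-11007118 or chr8:11007366-11007838. The last control peak (chr8:11007942-11008253) shared no bases with a replicate 1 peak. The longest stretch that a control peak (chr8:11006754-11007118) shared with a replicate 1 peak (chr8:11006499-11006927, 41.04) was 174 bases.

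*Irs2*, shared by NSC and *116HG* (chr8:11006754-11006927, minus strand): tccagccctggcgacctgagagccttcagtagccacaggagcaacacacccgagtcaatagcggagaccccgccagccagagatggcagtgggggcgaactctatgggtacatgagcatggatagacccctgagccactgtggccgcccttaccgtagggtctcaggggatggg

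Its GC content was 62.1%, and the same control peak shared a further 166 bases with the strongest replicate 1 peak of that exon (chr8:11006953-11007268, 102.6). At *Igf2* the NSC peak of *Snord116del* lay 486 bases before the gene, where no replicate 1 peak lay within 2 kb. Replicate 2 had no peak at *Irs2*, and the nearest gap from a replicate 1 peak of *Irs2* to a replicate 2 peak was 359.839 kb.

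Of the genes with a replicated peak, *Insr* and *Igf2r*, both were counted as higher at Zt +6 on the deposited scale (0.90 and 1.08). Both had passed the filter only through *Snord116del* at Zt +6. They stood at 0.38 and 0.53 with a common median and at -0.37 and -0.17 relative to the length trend, and with 2 such genes no relation between peaks and RNA levels can be read. In the list of 58 pathway genes, 40 (69%) had a replicate 1 peak, 13 (22.4%) a replicate 2 peak and 9 (15.5%) a peak in any control list, beside 59.3%, 13.8% and 10.7% of all genes. A replicated peak was found at 10 (17.2%, beside 10.9% of all genes): *Igfbp4*, *Igfals*, *Sh2b1*, *Pik3cd*, *Pik3r3*, *Akt2*, *Gsk3b*, *Ptpn1*, *Phlpp1* and *Ide*. The replicates overlapped at 0 of the 58 (3.32% of all genes). The shares of all genes were not matched to this list for length or abundance. In the set defined above by the length and abundance of the 10 genes, 19% had a replicated peak.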

How the data were processed

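Cortex RNA-seq of 9 mice in 4 groups and ChIRP-seq peak lists of 5 brain libraries were analysed. RNA reads were mapped to mm9 by the authors with Tophat2, and the deposited value is 1 Cuffdiff FPKM per group and gene. Their own log2 fold change and q-value columns, from a test between genotypes at each time, were not used. For ChIRP-seq the authors aligned reads with Bowtie2, called peaks with MACS in each library against a WT input, and deposited a fold over input, a ratio, for each peak except in WT *116HG* replicate 2, which has positions only. The submitters' processing notes name CASAVA 1.8.0, Bowtie2 2.0.0, MACS 1.4.2, TopHat2 2.0.5 and Cuffdiff 2.0.2. The study gives read totals per library, but a FPKM table keeps no record of the fragments behind a value, so the depth behind each value is unknown.

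A limma fit was planned for values of single mice. Since the table holds group values, a fold rule was used on log2(FPKM + 1), which understates changes of low genes: at least 1.5-fold, 1 FPKM or more in the higher group, and a mean of at least 1 FPKM. The length trend was a lowess curve (fraction 0.3) of log2 fold change on the log of the longest GENCODE transcript. Of 23235 genes, 21853 matched GENCODE by symbol. Peaks were assigned to genes within 2 kb and called replicated within 10 kb. Peak sequences came from NCBIM37 (mm9) and promoters from RefSeq (GRCm38.p6), whose coordinates are not comparable. The genes, the pathway list and the marker lists were chosen with earlier results of these data known. All 10 genes are named, with up to 3 nearest profiles of those spanning at least 1 on the log2 scale, the 4 pathway genes with the largest rise and fall among those counted at Zt +6 and 2 at Zt +16, and pathway genes with replicated peaks; 1 nearest profile and 1 peak sequence are not reported here. Steps were tested on simulated data. Alternatives covered pseudocount, filter, fold, scaling, the length trend, distances and peak strength; those on pathway counts outside Zt +6 were chosen after seeing the data. Scripts ran in Python 3.11.15 (statsmodels 0.14.6 for lowess, matplotlib 3.10.9 for plots, pandas 2.3.3, numpy 2.4.6 and scipy 1.17.1 elsewhere).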

Additional observations from a re-analysis of the deposited data

Results flagged for a closer look

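On the deposited scale, *Irs2* had genotype differences of opposite sign at the 2 times, and the other 9 genes did not. Its log2 fold change of FPKM + 1 in *Snord116del* against WT was 1.63 at Zt +6 (2.87 and 10.9 FPKM) and -0.0197 at Zt +16 (1.07 and 1.04 FPKM). The difference between the times was not tested, since each group has 1 value, and the value at Zt +16 is close to 0. The same was true of *Irs2* on each other scale, but not of *Irs2* alone: signs were opposite in 7 of the 10 genes with a common median, in all 10 with the same FPKM total and in 4 with the length trend removed.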

How the results depend on the processing

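No paired analysis was possible because the table holds 1 value per group and the ChIRP replicates are separate lists. Of 160 values of single genes recomputed on another scale, 128 kept their sign and 32 changed it: 17 with the length trend removed, 9 with the same FPKM total (all at Zt +16, between genotypes) and 6 with a common median. Of the 32, 4 were values counted on the deposited scale, and a further 13 counted values kept their sign and were no longer counted, while 7 came to be counted. Median scaling left 3 of 7 genes counted as higher at Zt +6, with *Igfbp2* at -0.039. Removing the length trend also left 3, with *Insr* at -0.37 and *Igf2r* at -0.17. It left 3 of 8 counted as lower with time in *Snord116del*, with *Insr* at 0.32, and it left 3 of 19 pathway genes at Zt +6 and added 2 as lower, 5 in all. A common median gave 8 pathway genes higher and 7 lower there. At Zt +16 the 3 pathway genes became 6 with a pseudocount of 0.1 and 0 with a fold of 2, either scaling or the length trend removed. Over time in WT the 5 became 10 with that pseudocount, 10 with the same total and 0 at a fold of 2. A fold of 2 left 12 pathway genes at Zt +6 and 0 of the 10 genes in WT over time, where scaling to the same total gave 8 in place of 4. A pseudocount of 0.1 added 1 gene, *Igfbp5* (0.62), at Zt +16. Genes with a replicated peak numbered 2, and 1 with direct overlap, 1 within 2 kb, 5 within 50 kb, 1 among replicate 1 peaks in the upper part of the fold over input, and 3 to 10 with 1 replicate left out (3 from replicate 2 alone, 10 from replicate 1 alone). The 2 genes with an NSC peak of *Snord116del* became 1 counting peaks inside genes only and 0 for stronger peaks. The causes were not tested. Without values per mouse, no difference here can be set against the spread between mice.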

Other observations

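The 3 binding proteins other than *Igfbp2* and *Igfbp5* that passed the filter were ordered differently in time from those genes. *Igfbp1* and *Igfbp3*, below the filter, were lower at Zt +16 in both genotypes, as *Igfbp2* and *Igfbp5* were. Their log2 fold changes in WT and *Snord116del* were -0.05 and -0.15 for *Igfbp1* and -0.23 and -0.37 for *Igfbp3*. *Igfbp4* stood at 20.3 and 33.1 FPKM in WT at Zt +6 and Zt +16 and at 18.99 and 37.5 FPKM in *Snord116del*, and was counted as higher at Zt +16 in both genotypes (log2 fold change 0.68 and 0.94). *Igfbp6* stood at 14.8 and 26.9 FPKM in WT and at 9.60 and 39.7 FPKM in *Snord116del*, also counted as higher in both (0.82 and 1.94). *Igfbp7* was counted as higher in *Snord116del* (13.6 and 28.8 FPKM, 1.03) and not in WT (0.40). All 3 have shorter transcripts (2094, 1112 and 1213 bases) than *Igfbp5*, and with the length trend removed the values were 0.60 and 0.77 for *Igfbp4*, 0.55 and 0.92 for *Igfbp6* and 0.15 and 0.12 for *Igfbp7* in WT and *Snord116del*. Scaled to the same FPKM total, the values were 0.25 and -0.11 for *Igfbp4*, 0.40 and 0.90 for *Igfbp6* and -0.02 and -0.01 for *Igfbp7*, so *Igfbp4* was counted in neither genotype and *Igfbp6* only in *Snord116del*. *Igfbp2*, of like length (1307 bases), had values of -0.61 and -1.50 with the length trend removed. These genes were picked after their values were seen, and their difference from *Igfbp2* was not tested.

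Of the wider pathway list, the other genes counted in WT with time were *Cbl* (-0.85), *Foxo3* (-0.84) and *Ide* (-0.81), all lower at Zt +16. They were 3 of the 33 passing the filter (9.09%), beside 10.3% of all genes. These 3, named after their values were seen, were also the 3 with the largest differences between genotypes at Zt +6, a comparison that shares the WT group at Zt +6. In *Snord116del*, 14 of the 33 were counted as lower at Zt +16 and 4 as higher, beside 39.1% and 25% of all genes. The balance depended on the scale, with 13 lower and 8 higher with a common median (26% and 34.6% of all genes). With the same FPKM total 25 were lower and 1 higher (66% and 8.11% of all genes). With the length trend removed 5 were lower and 11 higher (24.9% and 24.9% of all genes). The 4 counted as higher on the deposited scale were *Igfbp4*, *Igfbp6*, *Igfbp7* and *Grb2* (0.83), which encodes an adaptor of receptor tyrosine kinases.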
